A study of Mus musculus with 16 samples.

Results

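The genes described here encode the SR proteins and the heterogeneous nuclear ribonucleoproteins (hnRNPs), the main families of RNA-binding proteins that act on nascent transcripts. They were taken by name alone, as every gene whose symbol is *Srsf* followed by a number or *Hnrnp* followed by letters and digits, and they numbered 31 of the 30386 genes measured. Of these, 11 were *Srsf* genes and 20 were *Hnrnp* genes, and all 31 passed the filter on low values that left 12533 genes for testing. RNA had been sequenced from 16 cultures of neural stem/progenitor cells (NSPCs) of the mouse subventricular zone, the neurogenic wall of the lateral ventricles, with 8 cultures in each of 2 groups. *Dbx2*-NSPCs carried a plasmid (pTP6-*Dbx2*) for constitutive expression of the homeobox transcription factor *Dbx2*, and *GFP*-NSPCs carried the matching plasmid for a green fluorescent protein (pTP6-hrGFP). All lines came from C57BL/6 J/Babr mice of 3 months of age, had been selected with puromycin, and were grown for 4 to 6 days as non-adherent cultures with EGF and FGF2. The study's methods describe 2 pairs of lines from independent derivations, with 4 experiments on each pair. The samples therefore share few lines, and p-values measure the spread between cultures rather than between animals. The labels give the transgene and a number from 1 to 8, but not the line or whether samples of equal number were paired. Sequencing yielded 1803928 to 3293285 reads on genes per sample.

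SR proteins carry RNA recognition motifs and a tail rich in arginine and serine, and they bind exons and recruit the splicing machinery. The hnRNPs coat pre-mRNA, often oppose SR proteins at splice sites, and also act in mRNA export, stability and translation. Both families control cell-type-specific splicing in neural progenitors and in neurons. The QuantSeq assay used here reads the 3′ end of polyadenylated transcripts, so the values are the amount of mRNA of each gene and say nothing of how its exons were joined. In bulk cultures, fewer cells of a type and less RNA per cell cannot be told apart.

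The transgene and the cell identity were examined first. *Dbx2* ranged from 30.7 to 171 CPM (reads of a gene scaled to the sample's total) in *GFP*-NSPCs, with a median of 64.4, and from 114 to 232 CPM in *Dbx2*-NSPCs, with a median of 147. The groups overlapped, and the log2 fold change was 1.26 (standard error 0.317, adjusted p = 0.00978, limma; 2-sided exact permutation test of the 8 against 8 CPM values, p = 0.00497). In the samples numbered 1 to 4 alone the *Dbx2* log2 fold change was 0.54 and did not pass the test (adjusted p = 0.0891, limma), and in those numbered 5 to 8 it was 1.99 (limma interaction term, adjusted p = 0.000104). The table does not separate transgene reads from those of the resident gene. Of 9 NSPC markers, 9 were tested, and *Vim* was the most abundant of them with a mean of 2452 CPM. *Egfr*, *Fabp7* and *Slc1a3* fell in *Dbx2*-NSPCs and none of the NSPC markers rose. *Sox2*, at a log2 fold change of -0.37, did not pass (adjusted p = 0.181, limma) but did with the replicate block (adjusted p = 0.000508). The summed level of the NSPC markers had a median of 8232 CPM in the control group and of 6474 CPM with *Dbx2*. None of 5 microglia markers passed the filter. *Stmn2* of mature neurons, *Mog* of oligodendrocytes and *Cldn5* of endothelium were at 0 reads in every sample. Of 5 astrocyte markers, *Gfap* rose, *Aldh1l1* fell and *Gjb6* was at 0 reads. Of 4 ependymal markers, 3 were tested, and *Ccdc153* and *Rarres2* rose, with log2 fold changes of 1.75 and 1.24 (adjusted p = 0.0102 and 0.0226, limma). Controls reached down to 0 CPM for *Ccdc153* and 0.55 CPM for *Rarres2*, where 3 reads corresponded to 0.911 to 1.66 CPM. No size is read from these 2 fold changes. The summed level of the ependymal markers had a median of 15.1 CPM in the control group and 30.9 CPM with *Dbx2*. *Foxj1* was the most abundant (mean 16.4 CPM) and *Tmem212* was at 0 reads. *Foxj1*, at 0.56, did not pass (adjusted p = 0.104, limma) but did with the replicate block (adjusted p = 0.0307). *Flt1*, the 1 tested gene of 5 endothelial and mural markers, rose from a mean of 1.18 to 6.84 CPM, with controls from 0 to 2.39 CPM, around the level of 3 reads. Of 6 neuroblast and neuron markers, 5 were tested, with a median log2 fold change of 0.08, and *Map2* was the 1 that passed the test (-0.47, adjusted p = 0.00557, limma). Whether the shift in these markers had a part in the results below was not tested.

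The SR protein and hnRNP mRNAs that passed the test were all lower in *Dbx2*-NSPCs. Of the 31 genes, 13 fell (41.9%) and 0 rose at a limma adjusted p under 0.05, whereas 7.78% of all tested genes fell and 8.03% rose. The share called lower was 9.21% among genes averaging 10 CPM or more and 12.8% among those averaging 100 CPM or more. At an unadjusted p under 0.05, 19 of the 31 genes were lower and 0 were higher, against 15.1% and 14.1% of tested genes. With edgeR 10 of the 31 fell and 0 rose, against 7.01% and 8.38% of tested genes. With DESeq2 13 fell and 0 rose, against 8.11% and 9.42%. With the replicate block 14 fell and 0 rose, against 10.9% and 10.8%. The log2 fold change was negative for 26 of the 31 genes, compared with 52.7% of all tested genes. Its median over the 31 genes was -0.23, and over all tested genes it was -0.02. The changes were modest, and for 10 genes *Dbx2*-NSPCs were the lower sample of all 8 numbers, a pattern found in 7.47% of tested genes.

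**Figure D1:**
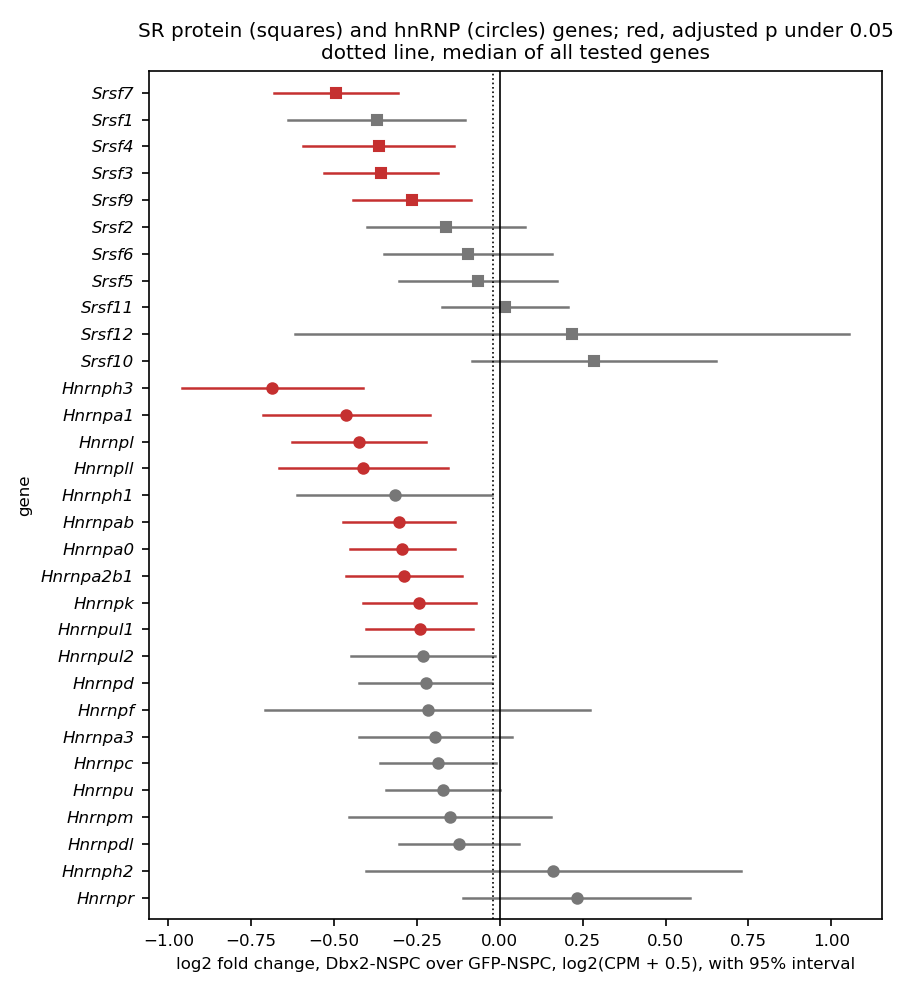
Log2 fold change on the log2(CPM + 0.5) scale (horizontal axis) of each of the 31 genes, with its 95% interval; squares are SR protein genes, circles hnRNP genes, red an adjusted p under 0.05 and the dotted line the median of all tested genes. The 13 red genes all lie left of 0, and the 5 genes right of 0 have intervals that span it.

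Among the SR proteins, *Srsf7*, *Srsf3*, *Srsf4* and *Srsf9* fell, which makes 4 of 11. *Srsf7* and *Srsf3* are close relatives that act in splicing and as adaptors for mRNA export. In GRCm38, *Srsf7* (ENSMUSG00000024097) lies at chr17:80200080-80207307 on the minus strand, and *Srsf3* lies on the plus strand of the same chromosome. Their upstream sequences are shown because these are the SR protein genes with the smallest adjusted p and *Dbx2* is a DNA-binding factor. The sequences are the bases before the RefSeq start in GRCm38.p6, ending where the annotated gene begins. *Srsf3* is shown from chr17:29032410-29032627 on the plus strand and *Srsf7* from chr17:80207308-80207555 on the minus strand, each 5′ to 3′ along its gene. Capitals mark matches to either strand of CCGGAAG, a form of the ETS-family motif, or CCAAT, the NF-Y motif.
Srsf3: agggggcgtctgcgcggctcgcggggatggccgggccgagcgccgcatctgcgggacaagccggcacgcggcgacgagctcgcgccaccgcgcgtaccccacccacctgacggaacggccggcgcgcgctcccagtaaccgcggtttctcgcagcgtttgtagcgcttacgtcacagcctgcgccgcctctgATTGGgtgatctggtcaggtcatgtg
Srsf7: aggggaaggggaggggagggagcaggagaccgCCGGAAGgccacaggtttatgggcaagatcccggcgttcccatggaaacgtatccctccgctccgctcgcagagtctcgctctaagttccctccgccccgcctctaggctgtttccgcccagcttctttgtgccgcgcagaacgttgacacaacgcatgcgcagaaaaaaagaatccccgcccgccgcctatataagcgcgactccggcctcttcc
*Srsf3* held 1 match to CCAAT and *Srsf7* held 1 match to CCGGAAG. The letters TAATTA, a core bound by many homeodomain proteins, were in neither window.

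Promoter windows of 250 bases were found for 29 of the 31 genes. On either strand, CCGGAAG was in at least 1 window of 6 of these genes (20.7%), against 7.83% of all 27025 genes with a window, tested or not. Genes can have several windows, and by window the shares were 21.95% of 41 and 6.91% of 32851. CCAAT was in 55.2% against 37.5%, CACGTG in 10.3% against 6.86%, and TAATTA in 3.45% against 5.65%. The windows were also rich in CpG, with a median of 23 CpG per window compared with 6 over all windows, and a median GC content of 68% compared with 52.4%. Matches describe the letters of these windows and are not binding sites.

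*Srsf7* ranged from 133 to 178 CPM in *GFP*-NSPCs (median 160) and from 93.7 to 137 CPM in *Dbx2*-NSPCs (median 109). The ranges overlapped, although 6 of 8 *Dbx2*-NSPC samples lay below every *GFP*-NSPC sample, and each of the 8 numbers showed the lower level in *Dbx2*-NSPCs. The log2 fold change was -0.49 (standard error 0.0892, adjusted p = 0.000746, limma). *Srsf3* ranged from 246 to 334 CPM in *GFP*-NSPCs (median 308) and from 204 to 269 CPM in *Dbx2*-NSPCs (median 238). The ranges overlapped, but again all 8 numbers showed the lower level in *Dbx2*-NSPCs. The log2 fold change was -0.36 (standard error 0.0826, adjusted p = 0.00556, limma).

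*Srsf4* belongs with *Srsf5* and *Srsf6* to the larger SR proteins with paired RNA recognition motifs. It ranged from 36.2 to 55.7 CPM in *GFP*-NSPCs (median 46.1) and from 27.3 to 42.9 CPM in *Dbx2*-NSPCs (median 36.4), with a log2 fold change of -0.37 (adjusted p = 0.0279, limma). The groups overlapped and 7 of 8 numbers were lower. *Srsf5* and *Srsf6* had log2 fold changes of -0.07 and -0.10 and did not pass the test (adjusted p = 0.749 and 0.648, limma). *Srsf9* ranged from 197 to 272 CPM in *GFP*-NSPCs (median 228) and from 145 to 214 CPM in *Dbx2*-NSPCs (median 198), a log2 fold change of -0.26 (adjusted p = 0.0395, limma). The groups overlapped, and this call was lost with the replicate number as a block (adjusted p = 0.0535).

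*Srsf1*, the founding SR protein and a general splicing activator, lay just outside the threshold. It ranged from 121 to 189 CPM in *GFP*-NSPCs (median 167) and from 78.9 to 162 CPM in *Dbx2*-NSPCs (median 130), lower in all 8 numbers. Its log2 fold change of -0.37 was as large as that of *Srsf4*, and the groups overlapped (standard error 0.128, adjusted p = 0.0539, limma). With the replicate block the adjusted p of *Srsf1* was 0.0288, and without *GFP*-NSPC replicate 1, its lowest control, it was 0.0195. *Srsf2*, a component of nuclear speckles, had a log2 fold change of -0.16 (adjusted p = 0.369, limma) and *Srsf11* of 0.02 (adjusted p = 0.93, limma). *Srsf12* was close to the detection floor, with 0 to 2.15 CPM per sample where 3 reads corresponded to 0.911 to 1.66 CPM, and no direction can be read from it. *Srsf10*, which represses splicing when dephosphorylated, had the highest log2 fold change of the 31 genes, 0.28, and did not pass the test (adjusted p = 0.301, limma).

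**Figure D2:**
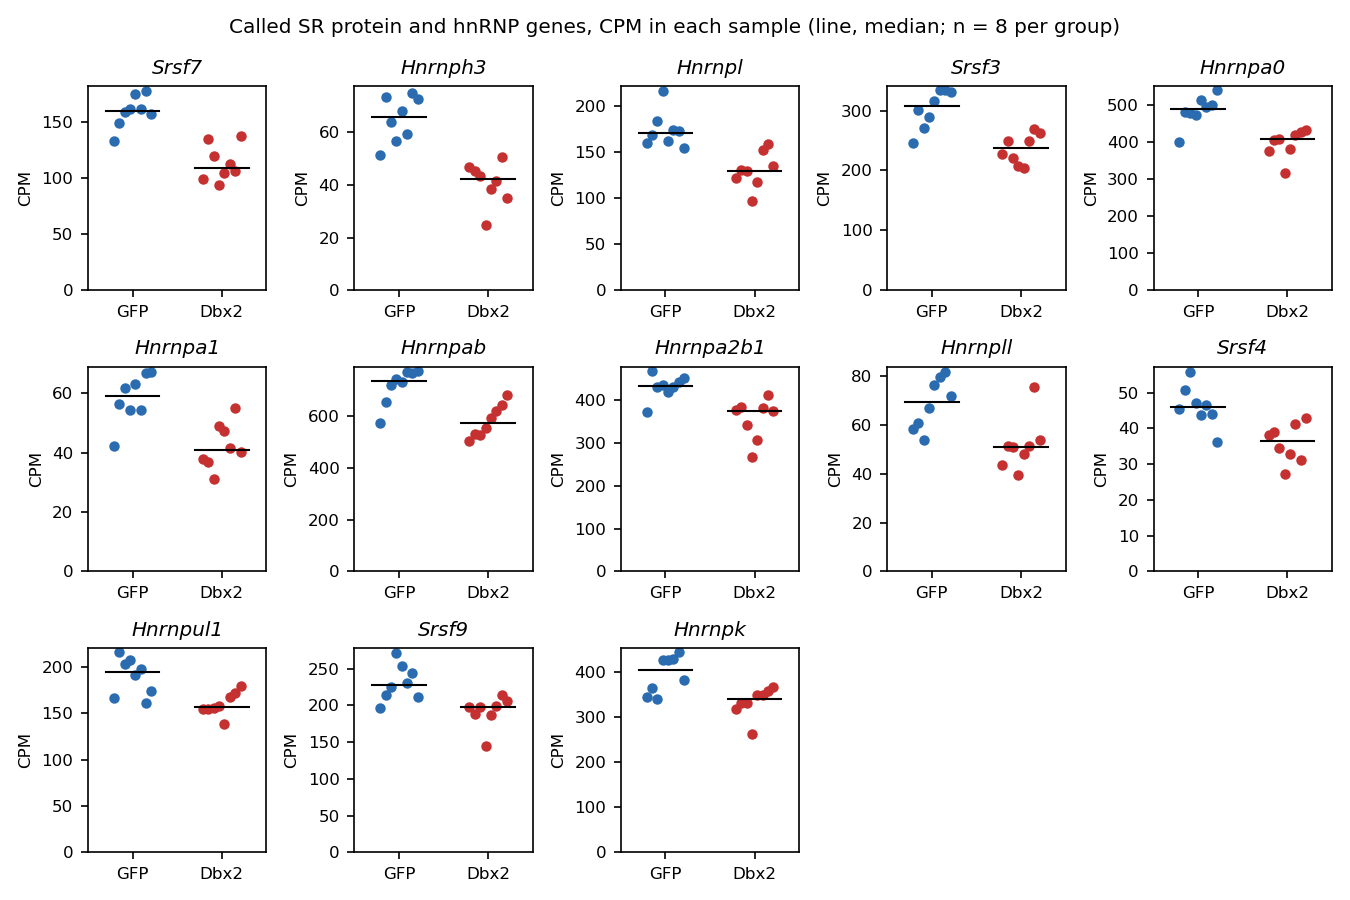
CPM in each sample (vertical axis, from 0) of the 13 genes called lower, in 8 *GFP*-NSPC samples (blue) and 8 *Dbx2*-NSPC samples (red), with the group median as a line; points run from replicate 1 to 8 within a group. *Hnrnph3* is the gene whose groups do not overlap.

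Among the hnRNPs, 9 of 20 fell. *Hnrnph3* belongs with *Hnrnph1*, *Hnrnph2* and *Hnrnpf* to the group that binds runs of guanine. *Hnrnph3* (ENSMUSG00000020069) lies at chr10:63014664-63024217 on the minus strand. It ranged from 51.6 to 75.1 CPM in *GFP*-NSPCs (median 66) and from 24.8 to 50.6 CPM in *Dbx2*-NSPCs (median 42.5). It was the only 1 of the 31 genes whose groups did not overlap, which held in the lower direction for 1.81% of tested genes. The log2 fold change of *Hnrnph3* was -0.69 (standard error 0.13, adjusted p = 0.00112, limma), the largest of the 31 genes. *Hnrnph3* overlaps *Rufy2*, a gene on the opposite strand with a mean of 83.7 CPM. The strand used in counting is not given in the sources used here, so reads of this pair may not be told apart. Its relatives did not pass the test, with log2 fold changes of -0.32 for *Hnrnph1* (adjusted p = 0.14, limma), -0.22 for *Hnrnpf* (0.586) and 0.16 for *Hnrnph2* (0.742). The 3′ end of *Hnrnph2* also matches another gene, and its value is uncertain.

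*Hnrnpl* and *Hnrnpll* are paralogues that bind CA-rich RNA. *Hnrnpl* ranged from 155 to 216 CPM in *GFP*-NSPCs (median 171) and from 96.5 to 159 CPM in *Dbx2*-NSPCs (median 130), with a log2 fold change of -0.43 (standard error 0.0962, adjusted p = 0.00483, limma). *Hnrnpll* ranged from 53.8 to 81.6 CPM in *GFP*-NSPCs (median 69.5) and from 39.5 to 75.4 CPM in *Dbx2*-NSPCs (median 51), with a log2 fold change of -0.41 (standard error 0.122, adjusted p = 0.0262, limma). Both paralogues were lower in all 8 numbers, with groups that overlapped. *Hnrnpll* lies beside *Srsf7* on chromosome 17, and the 50 tested genes nearest to each had a median log2 fold change of -0.09.

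The hnRNP A/B proteins counteract SR proteins at splice sites and shuttle between nucleus and cytoplasm. *Hnrnpa1* ranged from 42.3 to 67 CPM in *GFP*-NSPCs (median 59.2) and from 31.3 to 55.1 CPM in *Dbx2*-NSPCs (median 40.9), with a log2 fold change of -0.46 (standard error 0.12, adjusted p = 0.0126, limma). *Hnrnpa0* ranged from 401 to 541 CPM in *GFP*-NSPCs (median 489) and from 316 to 433 CPM in *Dbx2*-NSPCs (median 408), with a log2 fold change of -0.29 (adjusted p = 0.0118, limma). *Hnrnpa2b1* ranged from 373 to 467 CPM in *GFP*-NSPCs (median 433) and from 267 to 411 CPM in *Dbx2*-NSPCs (median 375), with a log2 fold change of -0.29 (adjusted p = 0.0238, limma). The groups overlapped for each of these A/B genes, and *Hnrnpa0* and *Hnrnpa1* were lower in all 8 numbers and *Hnrnpa2b1* in 7. *Hnrnpa3* did not pass the test (log2 fold change -0.20, adjusted p = 0.252, limma), and its 3′ end matches 17 other genes. Of these 16 are processed pseudogenes, and the 1 that is in the table had a mean of 0.0925 CPM; how reads that fit several places were counted is not given in the sources used here.

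*Hnrnpab*, *Hnrnpd* and *Hnrnpdl* form a further related group, known for binding AU-rich elements that set mRNA stability. *Hnrnpab* had the highest mean CPM of the 31 genes, 650. It ranged from 575 to 776 CPM in *GFP*-NSPCs (median 737) and from 503 to 681 CPM in *Dbx2*-NSPCs (median 574), with a log2 fold change of -0.30 (standard error 0.0807, adjusted p = 0.0144, limma). The groups overlapped, and all 8 numbers were lower. *Hnrnpd* had a log2 fold change of -0.22 and did not pass the test (adjusted p = 0.126, limma), but did with the replicate block (adjusted p = 0.0308). *Hnrnpdl* had a log2 fold change of -0.12 (adjusted p = 0.365, limma).

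*Hnrnpk*, which binds poly-C through KH domains, ranged from 339 to 444 CPM in *GFP*-NSPCs (median 404) and from 262 to 366 CPM in *Dbx2*-NSPCs (median 340). The groups overlapped, and its log2 fold change of -0.24 was the call nearest the threshold (adjusted p = 0.0487, limma). *Hnrnpul1*, a relative of the nuclear scaffold protein encoded by *Hnrnpu*, ranged from 161 to 216 CPM in *GFP*-NSPCs (median 194) and from 138 to 180 CPM in *Dbx2*-NSPCs (median 156), with a log2 fold change of -0.24 (adjusted p = 0.0394, limma). It was lower in 6 of 8 numbers. *Hnrnpk* and *Hnrnpul1* both missed the threshold when the libraries were rescaled by TMM, which left 11 calls.

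The other abundant hnRNPs were *Hnrnpu* (mean 628 CPM) and *Hnrnpm* (mean 606 CPM). *Hnrnpu* ranged from 538 to 720 CPM in *GFP*-NSPCs (median 678) and from 497 to 700 CPM in *Dbx2*-NSPCs (median 588), and *Hnrnpm* from 426 to 844 CPM (median 617) and from 391 to 696 CPM (median 603). Both overlapped and neither passed the test, with log2 fold changes of -0.17 (adjusted p = 0.171, limma) and -0.15 (adjusted p = 0.534, limma). *Hnrnpc*, which binds uridine tracts, and *Hnrnpul2* had log2 fold changes of -0.19 and -0.23 and did not pass either (adjusted p = 0.142 and 0.144, limma). As with *Hnrnph3*, overlapping genes had reads. On the opposite strand, *Hnrnpu* overlaps *Cox20* (mean 101 CPM), *Hnrnpk* overlaps *Rmi1* (16.1 CPM) and *Hnrnpab* overlaps *Phykpl* (7.03 CPM). Also opposite, *Srsf2* overlaps *Mfsd11* (29.3 CPM) and *Mettl23* (15.6 CPM), and *Hnrnpd* overlaps *Gm17092* (3.64 CPM). *Hnrnpm* overlaps *March2* (31.9 CPM) on the same strand. *Hnrnpr* was the remaining hnRNP with a positive log2 fold change besides *Hnrnph2*, at 0.23 (adjusted p = 0.371, limma).

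As a score, the mean log2(CPM + 0.5) of the 31 genes after subtracting that of every tested gene, the families were lower in *Dbx2*-NSPCs. The score ranged from 2.60 to 3.05 in *GFP*-NSPCs (2.87 ± 0.144, SD, n = 8) and from 2.49 to 2.80 in *Dbx2*-NSPCs (2.64 ± 0.105, SD, n = 8), a difference of -0.23. The groups overlapped, and *GFP*-NSPC replicate 1 had the lowest score of its group, 2.60. Without that sample the difference was -0.26, and 7 of 8 *Dbx2*-NSPC samples lay below every *GFP*-NSPC sample. The *Dbx2*-NSPC sample had the lower score in every number, by -0.12 to -0.34. In each number, 71% to 83.9% of the 31 genes were lower in *Dbx2*-NSPCs, against 48.8% to 52.4% of tested genes.

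**Figure D3:**
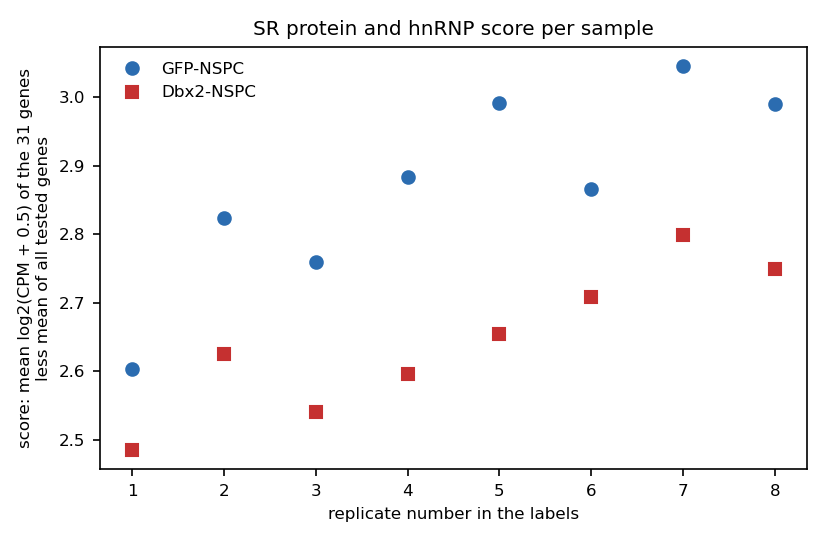
Score of the 31 genes (vertical axis, log2 units) in each sample against its replicate number (horizontal axis), for *GFP*-NSPCs (circles) and *Dbx2*-NSPCs (squares). The *Dbx2*-NSPC sample lies lower in all 8 numbers; among *Dbx2*-NSPCs, samples 5 to 8 all lie above samples 1 to 4.

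The difference was present in both families. The SR protein score differed by -0.17 and the hnRNP score by -0.26. In summed level, the 31 genes had a mean of 8001 CPM in the control group and of 6966 CPM with *Dbx2*, a change of -12.9%. The hnRNP sum changed by -14.2% and the SR protein sum by -9.65%.

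Other features of the libraries moved with the transgene. The share of mitochondrial reads was 4.23% ± 1.26 (SD, n = 8) in *GFP*-NSPCs and 6.30% ± 1.22 (SD, n = 8) in *Dbx2*-NSPCs (2-sided exact permutation test, p = 0.00824). *Malat1*, an abundant nuclear non-coding RNA, went from a mean of 9824 to 15602 CPM with no overlap between the groups (2-sided exact permutation test, p = 0.000155, the smallest that 8 against 8 samples can give). *GFP*-NSPC replicate 1, with the lowest score of its group, also had the highest mitochondrial share of its group, 6.96%. The part of these features in the lower SR protein and hnRNP levels was not tested. The total number of reads differed by less than the spread between samples (exact permutation test, p = 0.328).

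The samples numbered 1 to 4 and those numbered 5 to 8 differ in both groups, and the labels do not say what the sets are. *Dbx2* itself did not pass the test in the former set. Within the sets the score difference was -0.21 (numbers 1 to 4) and -0.25 (numbers 5 to 8), and in the latter set the groups did not overlap. The median log2 fold change of the 31 genes was -0.29 and -0.24. With 4 against 4 samples, 7 genes fell and 2 rose in numbers 1 to 4, where 7.37% of tested genes fell and 8.19% rose, and 12 fell and 0 rose in numbers 5 to 8, where 11.7% fell and 11.5% rose. With the number set as a covariate, 17 of the 31 genes fell and 1 rose, against 12.2% and 12% of tested genes. That fit kept all 13 calls and gained *Hnrnpd*, *Hnrnph1*, *Hnrnpu* and *Srsf1*, and the gene that rose was *Srsf10* (adjusted p = 0.0373, limma). *Hnrnpm* passed in numbers 5 to 8 alone (-0.28, adjusted p = 0.0382, limma) and was at -0.03 in numbers 1 to 4. *Srsf6* also passed in numbers 5 to 8 (-0.25, adjusted p = 0.0383, limma) and was at 0.058 in numbers 1 to 4. *Hnrnpd* and *Srsf1* passed in numbers 5 to 8 too (adjusted p = 0.0279 and 0.0209, limma). *Hnrnpul2* passed in numbers 1 to 4 (-0.45, adjusted p = 0.0421, limma) and was at -0.01 in numbers 5 to 8.

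*Srsf10* and *Hnrnpr* were the 2 genes whose fold change differed between the sets, a difference found in 9.44% of tested genes. *Srsf10* was at 92.7, 86.4, 81.8 and 91.3 CPM in *GFP*-NSPC replicates 1 to 4 and at 116, 134, 143 and 146 CPM in the *Dbx2*-NSPC samples of those numbers, with no overlap. In replicates 5 to 8 it was at 167, 156, 177 and 185 CPM in controls and at 172, 157, 178 and 159 CPM with *Dbx2*, where the groups overlapped. The log2 fold change of *Srsf10* was 0.61 in numbers 1 to 4 and -0.04 in numbers 5 to 8 (limma interaction term, adjusted p = 0.00226). *Hnrnpr*, a relative of *Syncrip* that acts on mRNA transport in neurons, was at 146, 111, 117 and 130 CPM in *GFP*-NSPC replicates 1 to 4 and at 160, 183, 201 and 214 CPM in the *Dbx2*-NSPC samples. Again the groups were apart in this set, and in replicates 5 to 8 they overlapped, at 207 to 253 CPM in controls and 195 to 235 CPM with *Dbx2*. The log2 fold change of *Hnrnpr* was 0.58 and -0.12 (limma interaction term, adjusted p = 0.00269).

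*Srsf10* and *Hnrnpr* are neighbours on chromosome 4, and the genes around them showed the same pattern. A difference between the sets was called for 20 of the 50 tested genes nearest to *Srsf10* and 22 of those nearest to *Hnrnpr*. These stretches (chr4:133847290-137796384 and chr4:134275002-138367992) overlap for most of their length, so their counts and medians are not separate observations. In numbers 1 to 4, the median log2 fold change of the 50 tested genes nearest to *Srsf10* was 0.71, with 46 of 50 positive, and for *Hnrnpr* it was 0.74, with 47 of 50 positive. In numbers 5 to 8 these medians were 0.03 and -0.0037. Over all samples, *Srsf10* less the median of its neighbours was -0.05 and *Hnrnpr* less its neighbours -0.09. *Srsf2* on chromosome 11 lay among genes with a shift in the other set, with a median of 0.60 and 50 of 50 positive in numbers 5 to 8, where *Srsf2* itself had a log2 fold change of -0.01. Relative to 50 neighbours, 28 of the 31 genes were negative, with a median of -0.26. The same count was not made over all tested genes. Some members share their neighbours, as do *Hnrnpa0* with *Hnrnpk* and *Hnrnpd* with *Hnrnpdl*.

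**Figure D4:**
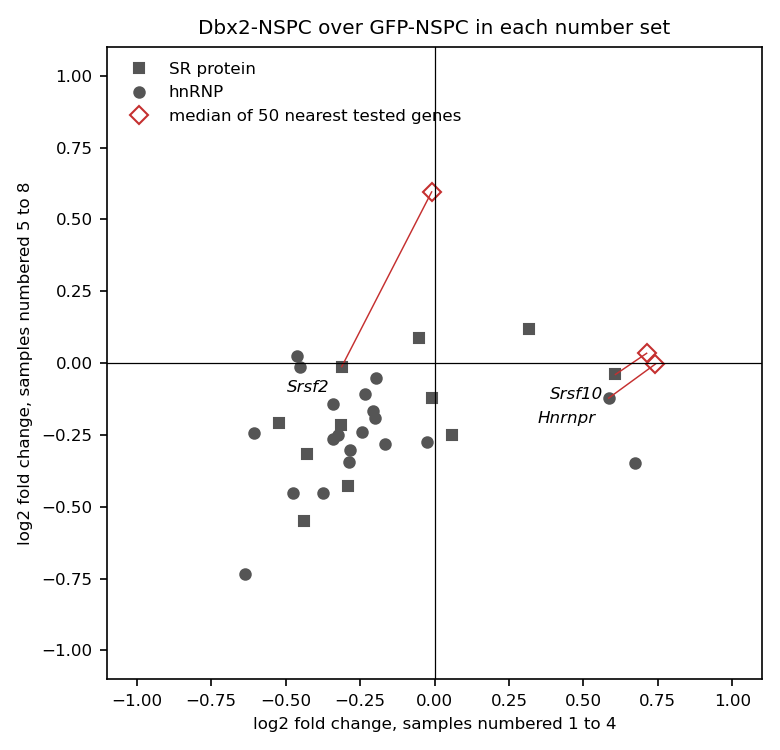
Log2 fold change in the samples numbered 1 to 4 (horizontal axis) and 5 to 8 (vertical axis) for the 31 genes, with red diamonds for the median of the 50 tested genes nearest to *Srsf10*, *Hnrnpr* and *Srsf2*. *Srsf10* and *Hnrnpr* lie close to their neighbours, at 0.61 and 0.58 on the horizontal axis, whereas *Srsf2* lies away from its neighbours.

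Genes that work with these families were examined from lists. The SR protein kinases phosphorylate the arginine-serine tails. Of these, 0 of 9 genes were called in either direction by limma, edgeR or DESeq2 (0 at an unadjusted p under 0.05 with each). Limma called 15.8% of all tested genes in either direction. In numbers 5 to 8 alone the kinase *Dyrk1a* was called lower (-0.26, adjusted p = 0.0408, limma), where 11.7% of tested genes fell. Of 25 SR-related proteins, 3 fell and 0 rose, where 7.78% and 8.03% of all tested genes did. *Tra2b*, a splicing activator, ranged from 192 to 276 CPM in *GFP*-NSPCs (median 225) and from 140 to 219 CPM in *Dbx2*-NSPCs (median 163), overlapping, with a log2 fold change of -0.43 (adjusted p = 0.00636, limma). *U2af1*, which recognises the 3′ splice site, had a log2 fold change of -0.38 (adjusted p = 0.0408, limma), and *Scaf11* of -0.20 (adjusted p = 0.0489, limma).

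Of the 15 hnRNPs known under other names, 14 were tested and 3 fell, again beside 7.78% of all tested genes, while *Ralyl* was at 0 reads in every sample. *Pcbp2*, a poly-C binding protein, ranged from 301 to 358 CPM in *GFP*-NSPCs (median 328) and from 206 to 285 CPM in *Dbx2*-NSPCs (median 249). Its groups did not overlap, and the log2 fold change was -0.41 (standard error 0.0707, adjusted p = 0.000486, limma). *Ptbp3*, of the polypyrimidine tract binding proteins, had a log2 fold change of -0.45 (adjusted p = 0.0333, limma) and *Pcbp3* of -0.66 (adjusted p = 0.0409, limma). Of 4 import and methylation factors, *Tnpo3*, the import receptor of SR proteins, fell by 0.22 on the log2 scale (adjusted p = 0.035, limma). Over these lists 7 of 52 tested genes fell and 0 rose, with a median log2 fold change of -0.10. With the replicate block 10 of the 52 fell and 2 rose, where 21.7% of all tested genes were called in either direction against 15.8% without it. The block gained *Ptbp1*, *Syncrip* and *Luc7l2* as lower (adjusted p = 0.0246, 0.016 and 0.028, limma). It gained *Rsrp1* as higher, at 0.52 (adjusted p = 0.00885 with the block and 0.0715 without it, limma). *Srrm4*, a neural splicing activator, was also called higher (1.85, adjusted p = 0.0455 and 0.0605, limma). It ranged from 0 to 1.21 CPM in *GFP*-NSPCs (median 0.155), around or below the 3-read floor. Because *Srrm4* passed the filter mainly through *Dbx2*-NSPC samples (0 to 12.8 CPM), no size is read from its fold change.

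The fold change differed between the number sets for 6 of these 52 genes, beside 9.44% of all tested genes; the genes named here were chosen after their values were seen. *Srrm4* (means of 0.28 CPM in controls and 4.36 CPM with *Dbx2*) had log2 fold changes of 0.03 in numbers 1 to 4 and 3.67 in numbers 5 to 8 (limma interaction term, adjusted p = 0.00108). Its controls lay around or below the 3-read floor, so no size is read from these values. *Ptbp2*, the neural polypyrimidine tract binding protein, fell in numbers 1 to 4 (-0.63) and rose in numbers 5 to 8 (0.43; limma interaction term, adjusted p = 0.00177). *Ptbp1*, its counterpart in progenitors, was at -0.07 and -0.78 (limma interaction term, adjusted p = 0.00423). Of the 5 tested neuroblast and neuron markers, 2 differed between the sets, and *Tubb3*, *Syt1* and *Map2* did not pass that test (limma interaction term, adjusted p = 0.959, 0.299 and 0.0578). *Dcx* (means of 2.14 CPM in controls and 2.41 CPM with *Dbx2*) had log2 fold changes of -2.87 and 3.02, and *Rbfox3* (3.22 and 5.45 CPM) of -1.96 and 2.90 (limma interaction term, adjusted p = 3.26e-07 and 3.9e-06). *Dcx* reached down to 0 CPM in both groups, and *Rbfox3* to 0.31 CPM in controls and 0.36 CPM with *Dbx2*. Such samples lie below the 3-read floor, so no size is read from these fold changes. The part of *Dcx* and *Rbfox3* in the values of *Srrm4* and *Ptbp2* was not tested.

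**Figure D5:**
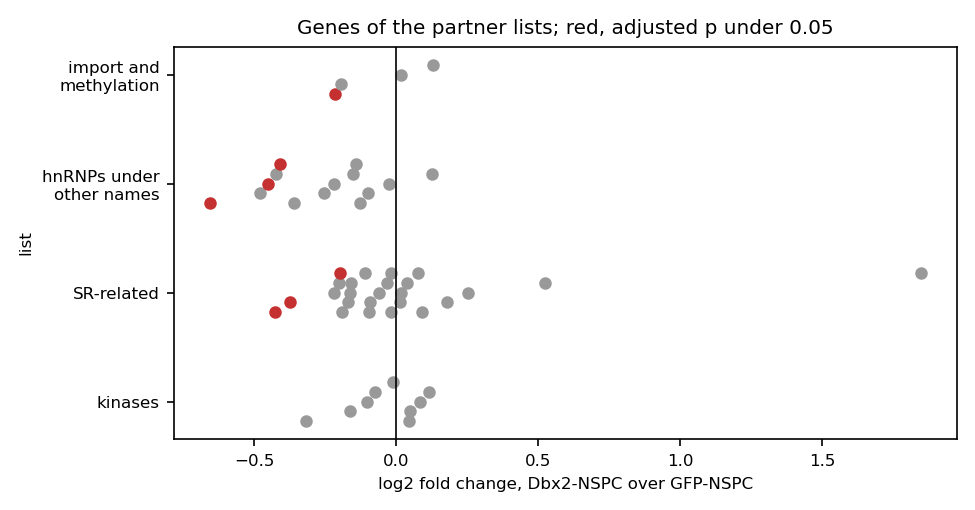
Log2 fold change (horizontal axis) of each tested gene of the partner lists (rows), with red for an adjusted p under 0.05; vertical offsets within a row only separate points. The 7 red genes all lie left of 0, and the kinases have none.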

How the data were processed

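The authors checked reads with FastQC 0.11.8, trimmed them with bbduk and aligned them with STAR 2.5.0a to GRCm38 (mm10); the counting tool and strand are not given in the sources used here. Tool versions other than those computed here come from the submitters' processing notes, which also name edgeR 3.36. The deposited CPM, made by the authors by scaling each sample to its read total, cover 30386 genes in 16 columns, and 0 columns were left out. Whole reads were recovered from 99.996% of values above 0, within 0.0075 CPM. Read totals set a floor of 3 reads, 0.911 to 1.66 CPM, which covers counting error only.

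Groups followed the transgene label. Genes above 1 CPM in 4 or more samples were compared by limma 3.58.1 (R 4.3.3; eBayes with an intensity trend) on log2(CPM + 0.5), adjusted by Benjamini-Hochberg over 12533 genes. The study's line covariate is not in the labels and was not fitted. The members and lists were chosen with earlier results of these data known. Genes given in full were those with an adjusted p under 0.05, the 3 of highest mean CPM, those at 0, those nearest the threshold, those whose fold change differed between number sets, and called partner genes. The exact test of *Dbx2* was run on CPM, and a second run on log2(CPM + 0.5), chosen after the first value was seen, gave p = 0.00357. Same-numbered samples deviated together, with correlations of 0.152 to 0.303 in 8 of 8 pairs, and the labels' numbers were used as a block in an alternative fit. The mean correlation was 0.226 for the same number and 0.199 for other numbers of the same set. Only 4 of 8 pairs matched best by number. Within the number sets the means were 0.0403 for the same number and -0.0136 for other numbers. The correlations thus mostly follow the sets, and a pairing by number is not established. Alternatives were other pseudocounts, filters and scalings, eBayes without trend, the block, the number set as a covariate or alone, leaving out *GFP*-NSPC replicate 1, and edgeR 4.0.16 and DESeq2 1.42.0 on whole reads. The comparison with 50 neighbouring genes was added after the data were seen. Tested on simulated counts for this comparison (12533 genes), limma found 85 of 88 genes altered 2-fold and 112 of 112 altered 4-fold, with 9 false calls. The simulated counts held no difference between the number sets, which these data do hold, so these rates may not apply here. Smaller changes, such as those of every member, were not simulated. Gene positions came from GENCODE and promoter windows from RefSeq (GRCm38.p6); shared 3′ ends were sought in the last 300 bases at 97% identity over 80 bases. Python 3.11.15 and matplotlib 3.10.9 were used.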

Additional observations from a re-analysis of the deposited data

Results flagged for a closer look

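Fold changes differed between the samples numbered 1 to 4 and 5 to 8 by -0.65 for *Srsf10* and -0.71 for *Hnrnpr* (limma interaction term, adjusted p = 0.00226 and 0.00269). For *Dbx2* itself the difference was 1.45 (limma interaction term, adjusted p = 0.000104). Of the partner genes, the difference was 3.64 for *Srrm4*, 1.06 for *Ptbp2*, -0.72 for *Ptbp1*, -0.56 for *Srrm1*, -0.75 for *Rsrc1* and -0.51 for *Bclaf1* (limma interaction term, adjusted p = 0.00108 to 0.015). Of the markers it was 5.89 for *Dcx*, 4.86 for *Rbfox3* and -0.68 for *Nes* (limma interaction term, adjusted p = 3.26e-07, 3.9e-06 and 0.00488).

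A single sample lay far from the other 7 of its group in 7 of 78 groups examined, where chance gives about 1 in 20. *Dbx2*-NSPC replicate 4 was the lowest of its group for *Hnrnpk* (262 CPM, the others from 319 to 366) and for *Srsf9* (145 CPM, the others from 188 to 214). *GFP*-NSPC replicate 4 was the highest for *Hnrnpl*, at 216 CPM where the others reached 183. *Dbx2*-NSPC replicate 7 was the highest for *Hnrnpll*, at 75.4 CPM where the others reached 54, and had the smallest read total of its group, 2214008. *GFP*-NSPC replicate 1 was the lowest for *Srsf1*, at 121 CPM where the others began at 158, and had the highest mitochondrial share, 6.96% where the others reached 4.81%.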

How the results depend on the processing

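The count of 13 SR protein and hnRNP genes called lower was 10 to 17 under every alternative but the samples numbered 1 to 4 alone, which gave 7 lower and 2 higher; the number set as a covariate gave 1 higher. The median log2 fold change stayed between -0.29 and -0.21 and the score difference between -0.26 and -0.21. Of the 13 called genes, 3 (*Srsf7*, *Hnrnph3* and *Hnrnpab*) passed under all 14 alternatives and 0 changed sign. With the replicate block 14 genes were called lower, with *Srsf9* lost and *Hnrnpd* and *Srsf1* gained, and no other call of the 31 genes changed. Of all tested genes 1982 were called, and 3034 with the number set as a covariate. *Dbx2* had a log2 fold change of 0.54 (adjusted p = 0.0891, limma) in samples numbered 1 to 4 alone. The 7 calls of the partner lists became 4 with no filter, with edgeR and in numbers 1 to 4, 3 without the trend, 11 with DESeq2, 12 with the replicate block, with the set covariate and without *GFP*-NSPC replicate 1, and 13 in numbers 5 to 8. Of these calls 2 were higher with the block, the covariate, DESeq2 and numbers 5 to 8, and 1 with edgeR, numbers 1 to 4 and without *GFP*-NSPC replicate 1; with no filter and without the trend 0 were higher. Uncalled genes changed sign in numbers 1 to 4 for *Srsf6* (0.058) and *Srsf11* (-0.054), and in numbers 5 to 8 for *Srsf10* (-0.040), *Hnrnpr* (-0.12), *Hnrnph2* (-0.35) and *Hnrnpf* (0.026). The cause was not tested, and the subsets hold fewer samples. Depth limits *Srsf12*, whose levels lie around the 3-read floor, and *Srrm4*, whose control levels lie around or below it. The markers *Dcx*, *Rbfox3*, *Ccdc153*, *Rarres2* and *Flt1* also had samples below that floor.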
